A study of Mus musculus with 11 samples.

Results

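The 42 genes described here encode proteins that drive cell division and DNA replication. They were found as the rows of the count table whose Ensembl identifiers map to a list of 42 symbols. All 42 were in the table, and all 42 passed the filter on low counts that left 14521 genes for testing. By textbook role, 4 act at the G1/S transition (Ccne1, Ccne2, E2f1 and E2f2). Another 12 act in DNA replication, from the Mcm2 to Mcm7 helicase subunits and Pcna to the enzymes that supply nucleotides. The remaining 26 act in or towards mitosis, from Cdk1 and its cyclins to kinetochore proteins and spindle motors, and Mki67 and Top2a are counted with them.

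Bulk RNA sequencing covered 11 mouse samples labelled as acute myeloid leukaemia (AML). The donor mice of every sample had Flt3-ITD, a duplication within the cytokine receptor gene Flt3 that keeps the receptor active, and NHD13, a transgene for the fusion of NUP98 with HOXD13. In 6 samples the label gives Ifnar1 +/-, with 1 functional copy of a type I interferon receptor subunit gene, and in 5 it gives Ifnar1 -/-, with none. Samples are called here by genotype and by the number in their label, for example Ifnar1 +/- library 1. The labels record no treatment or time. No source used here gives the age or sex of the mice, the sorting of cells, the cell type in which the transgene is active or the number of mice per sample, so p-values measure only the spread between these samples, which may be technical. There was no wild-type Ifnar1 sample, and none without Flt3-ITD and NHD13, so all comparisons are within this leukaemia model.

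In a dividing cell, cyclin E with its kinase partner frees E2F factors from the retinoblastoma protein, and E2F target genes then supply the replication machinery. Mcm2 to Mcm7 are loaded at origins with the help of Cdc6, are activated with Cdc45, and copy DNA with the sliding clamp Pcna, while ribonucleotide reductase (Rrm1, Rrm2) and thymidylate synthase (Tyms) make the nucleotides. Later in the cycle the MuvB complex with B-Myb and FoxM1 switches on mitotic genes, many through a promoter element called the cell cycle homology region, often next to CCAAT boxes bound by NF-Y. In blood, dividing progenitors carry high levels of these transcripts and resting stem cells and mature granulocytes carry low levels.

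The libraries held between 25583642 and 38728143 estimated counts, with 13265 to 14730 genes at 10 counts or more. Ifnar1 itself, the targeted gene, had 39.3, 50.03, 84.5, 68.5, 72.3 and 51.4 CPM (counts after every library is brought to the same size) in Ifnar1 +/- libraries 1 to 6. It had 36.3, 54.2, 133, 47.3 and 74.8 CPM in Ifnar1 -/- libraries 1 to 5. Its transcript was thus not lower under the Ifnar1 -/- label (log2 fold change 0.18, SE 0.34, edgeR quasi-likelihood adjusted p = 0.9998). The labels do not say which part of the gene was altered, and a total over the gene does not show whether the transcript is intact, so these values do not check the genotype labels; every genotype direction below is between libraries so labelled. The B lineage factor Ebf1 divided the libraries sharply. It had 531 to 745 CPM in 5 libraries (Ifnar1 +/- 3, 4 and 5 and Ifnar1 -/- 3 and 5) and 0.0309 to 8.72 CPM in the other 6 (Ifnar1 +/- 1, 2 and 6 and Ifnar1 -/- 1, 2 and 4). A boundary of 400 CPM separates these sets, called Ebf1-high and Ebf1-low libraries below. They are sets made from a measured gene and not groups of the labels, so they are described without a test, and in bulk RNA fewer dividing cells and less of these transcripts per cell cannot be told apart.

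Of the 42 genes, 38 had every Ebf1-high library above every Ebf1-low library, 0 had every one below, and 4 overlapped. Over all 14521 genes, 12.1% had the Ebf1-high libraries entirely above and 9.001% entirely below. The ratio of the Ebf1-high to the Ebf1-low median had its own median at 3.44 over the 42 genes and 0.988 over all tested genes. By role, 25 of 26 mitotic genes, 11 of 12 replication genes and 2 of 4 G1/S genes stood entirely above. The 4 that overlapped were Ccnb1, Rrm1, E2f1 and E2f2. With library totals only in place of the scaling used, 40 stood entirely above, and Ccnb1 and Rrm1 no longer overlapped. The share of all genes was not counted under that scaling.

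**Figure D1:**
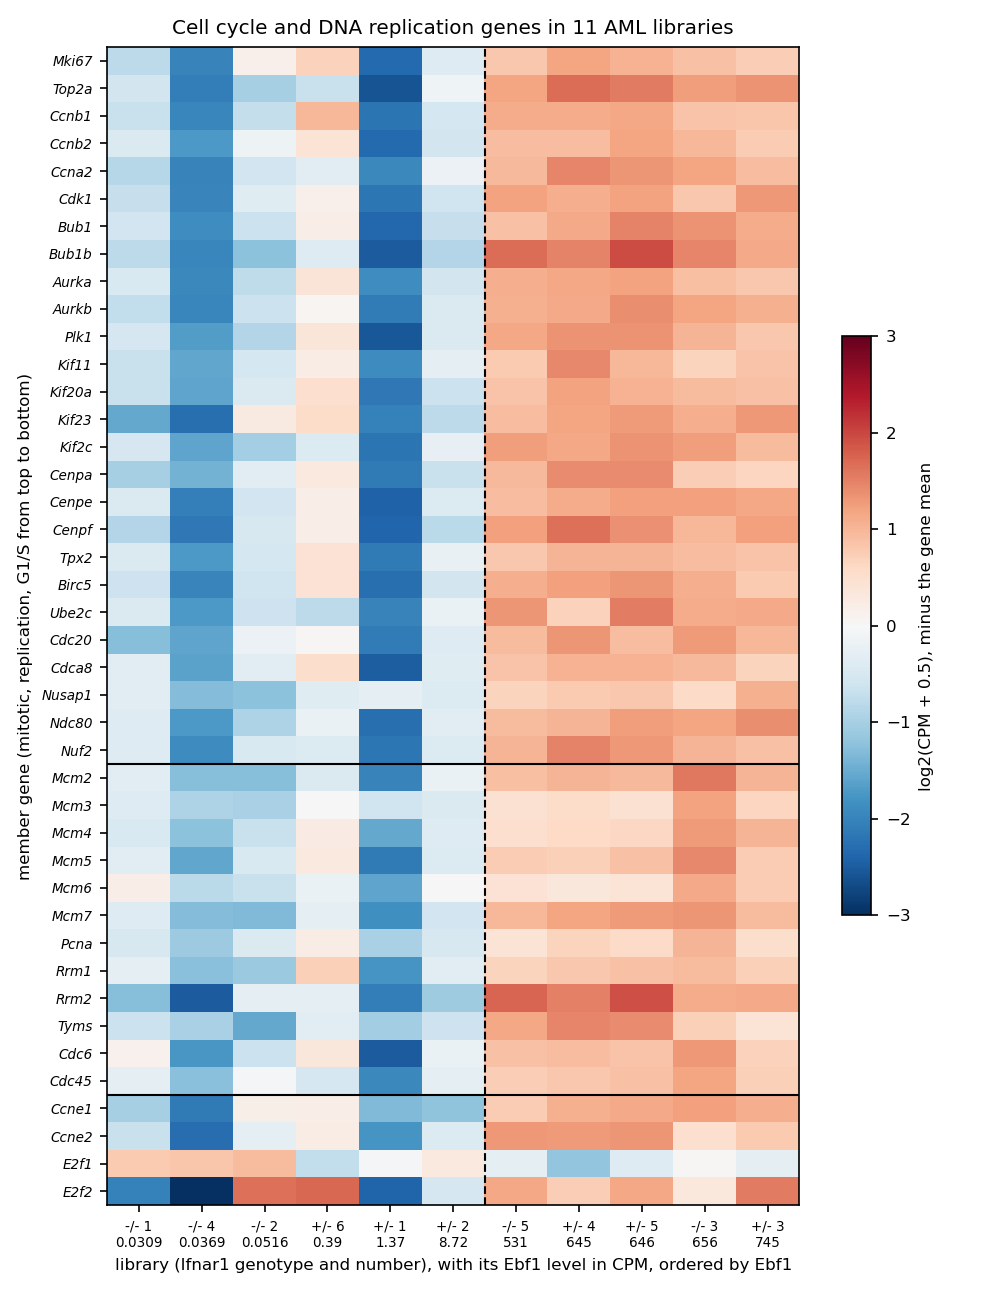
Level of the 42 genes (rows, grouped as mitotic, replication and G1/S from top to bottom) in the 11 libraries (columns, ordered by Ebf1, whose CPM is printed under each), as log2(CPM + 0.5) minus the gene's mean. The 5 Ebf1-high libraries, right of the dashed line, are above the gene's mean for nearly all rows, Ifnar1 +/- library 1 and Ifnar1 -/- library 4 are far below it, and E2f1 runs the other way.

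By genotype, 38 of the 42 genes had a fitted level lower under the Ifnar1 -/- label and 4 a higher one, where 51.7% of all tested genes were lower. The median log2 fold change was -0.34 (range -0.57 to 0.91) against -0.015 over all tested genes. No gene passed: edgeR's quasi-likelihood test called 0 of the 42 (all with adjusted p = 0.9998) and 0 of the 14521, which is 0% of genes. At an unadjusted p under 0.05 there was 1 of the 42, E2f1, against 289 genes or 1.99% of all. The genotypes overlapped for each of the 42 genes, and 0.124% of all genes had genotypes that did not overlap. Standard errors ran from 0.34 to 0.89 on the log2 scale, and only the fold changes of Nusap1 and E2f1 exceeded theirs. With the Ebf1 set as a covariate, 35 of the 42 were lower under the Ifnar1 -/- label (48.1% of all genes), and with log2 Ebf1 as a covariate 23 were (48.6% of all genes). The median of the 42 was -0.23 and -0.063 in those fits, and neither called any gene. It was -0.088 without Ifnar1 -/- library 4, with 26 genes lower, and -0.65 without Ifnar1 -/- library 3, with 41 lower. The matching share of all genes was not counted for fits without a library.

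**Figure D2:**
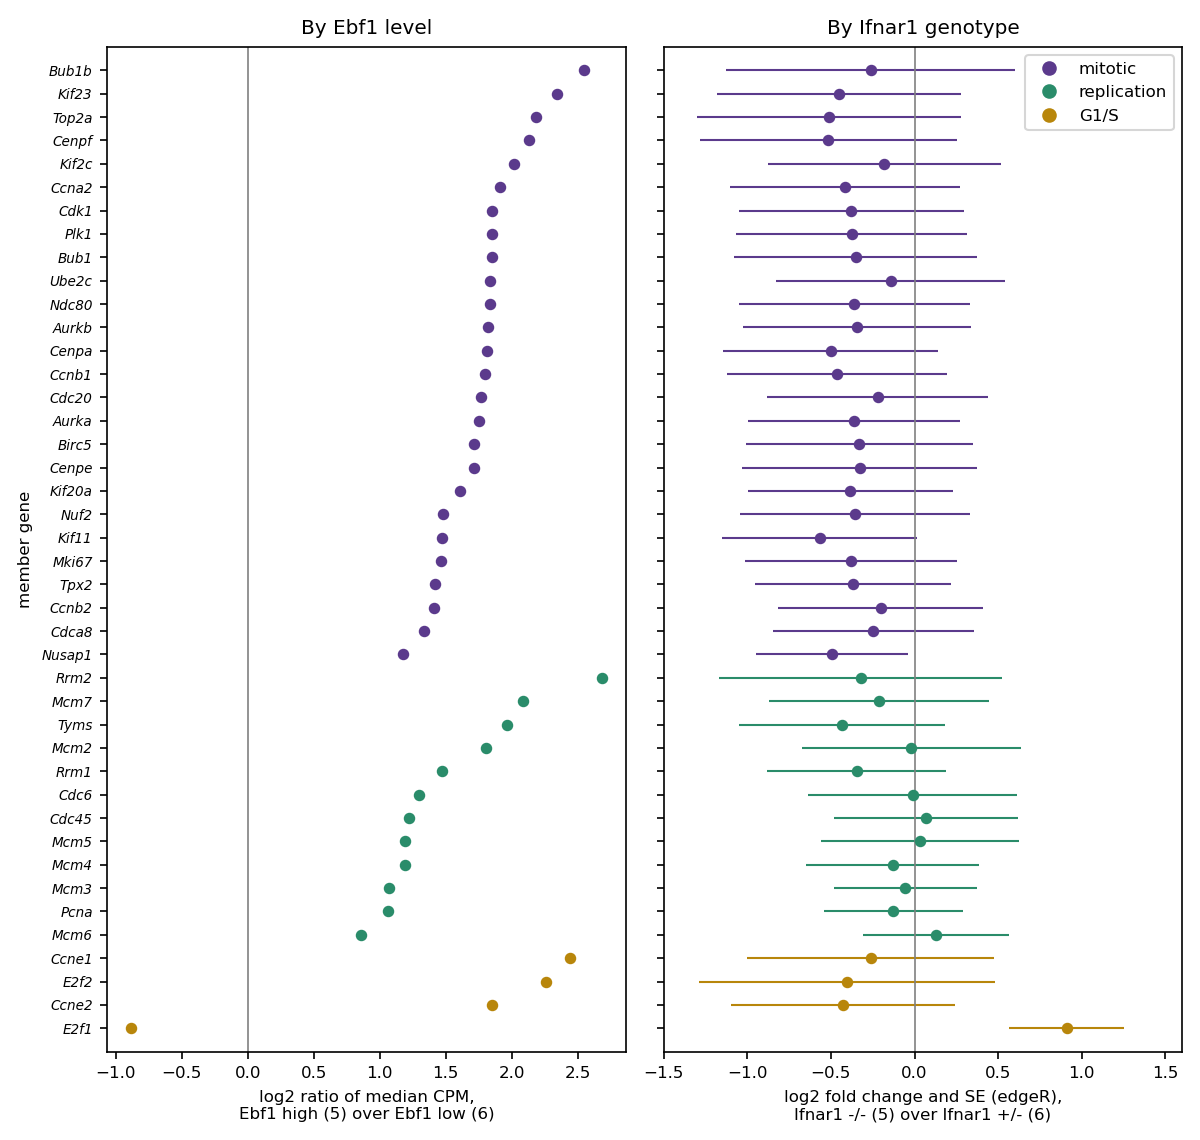
Left, log2 ratio of the median CPM of the 5 Ebf1-high libraries to that of the 6 Ebf1-low libraries for each gene; right, log2 fold change of Ifnar1 -/- (n = 5) over Ifnar1 +/- (n = 6) with bars of 1 SE from edgeR. Ratios run from 0.541 (E2f1) to 6.43 (Rrm2) before taking logs, and the SE bars of the genotype fold changes include 0 except for Nusap1 at -0.49 and E2f1 at 0.91.

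The G1/S genes were the least uniform. E2f1 encodes an activating E2F factor, and it had 6.48, 3.24, 5.94, 8.24 and 6.52 CPM in the Ebf1-high libraries, named in the order Ifnar1 +/- 3, 4 and 5 and then Ifnar1 -/- 3 and 5, which is kept for every gene below. In the 6 Ebf1-low libraries it had a lowest value of 4.61, a median of 11.97 and a highest value of 15.9 CPM. It was the only one of the 42 with a lower median in the Ebf1-high libraries, and both sets overlap. By genotype E2f1 had 6.31 ± 2.34 CPM (SD, n = 6) under the Ifnar1 +/- label and 11.9 ± 4.20 CPM (SD, n = 5) under Ifnar1 -/-. The log2 fold change was 0.91 (SE 0.34), with an unadjusted p of 0.0228 in edgeR's quasi-likelihood test and an adjusted p of 0.9998, so it did not pass. The values above the Ifnar1 +/- maximum of 9.93 CPM came from Ifnar1 -/- libraries 1, 2 and 4, with 14.0, 15.9 and 14.7 CPM, all Ebf1-low, while Ifnar1 -/- libraries 3 and 5 lay inside the Ifnar1 +/- range.

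E2f2, the other E2F activator of the list, varied most of all: its highest library had 37.4 times its lowest. It had 189, 108, 145, 79.7 and 145 CPM in the Ebf1-high libraries and a lowest, median and highest value of 5.71, 30.1 and 214 CPM in the Ebf1-low ones. Under the scaling used, Ebf1-low libraries thus held both its lowest values and its highest, which were 214 CPM in Ifnar1 +/- library 6 and 204 CPM in Ifnar1 -/- library 2. That scaling (TMM) raised both libraries, with factors of 0.889 and 0.682, and lowered Ifnar1 +/- library 3, with a factor of 1.08. With library totals only, the highest E2f2 value was in Ifnar1 +/- library 3, which is Ebf1-high. By genotype E2f2 had 119 ± 79.6 CPM (SD, n = 6) under the Ifnar1 +/- label and 89.8 ± 84.8 CPM (SD, n = 5) under Ifnar1 -/- (log2 fold change -0.40, SE 0.89, edgeR adjusted p = 0.9998). Ifnar1 +/- library 6 and Ifnar1 -/- library 2 also had the highest sums over erythroid markers and over granulocyte markers. Ifnar1 +/- library 1, with 11.8 CPM of E2f2, had the highest sums over megakaryocyte, stem and progenitor, and T and natural killer cell markers. Hemoglobin genes led an erythroid marker sum of 135817 CPM in Ifnar1 +/- library 6, against 981 to 15875 CPM in the other 10 libraries. Granule genes led an eosinophil sum of 68518 CPM and a neutrophil sum of 30493 CPM in Ifnar1 -/- library 2, against at most 2024 and 5537 CPM in the others. The part of other cells in the E2f2 levels was not tested.

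Ccne1 and Ccne2 encode the cyclins E that activate Cdk2. Ccne1 had 10.8, 10.7, 11.2, 12.1 and 8.51 CPM in the Ebf1-high libraries and a lowest, median and highest value of 0.737, 1.98 and 5.65 CPM in the Ebf1-low ones. Ccne2 had 30.3, 42.5, 44.4, 24.9 and 43.3 CPM in the Ebf1-high libraries against 3.13, 11.8 and 20.1 CPM as lowest, median and highest in the Ebf1-low ones. Neither gene's sets overlapped. Genotypes overlapped for both, with 6.98 ± 4.55 CPM (SD, n = 6) against 5.82 ± 4.64 CPM (SD, n = 5) for Ccne1 and a log2 fold change of -0.26 (SE 0.74). For Ccne2 they were 25.8 ± 16.0 CPM (SD, n = 6) and 19.2 ± 15.6 CPM (SD, n = 5), with a log2 fold change of -0.43 (SE 0.67). Exons of Ccne2 overlap those of Ints8 on the opposite strand, and no source used here says whether the counting used strand, so reads of the pair may be mixed.

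**Figure D3:**
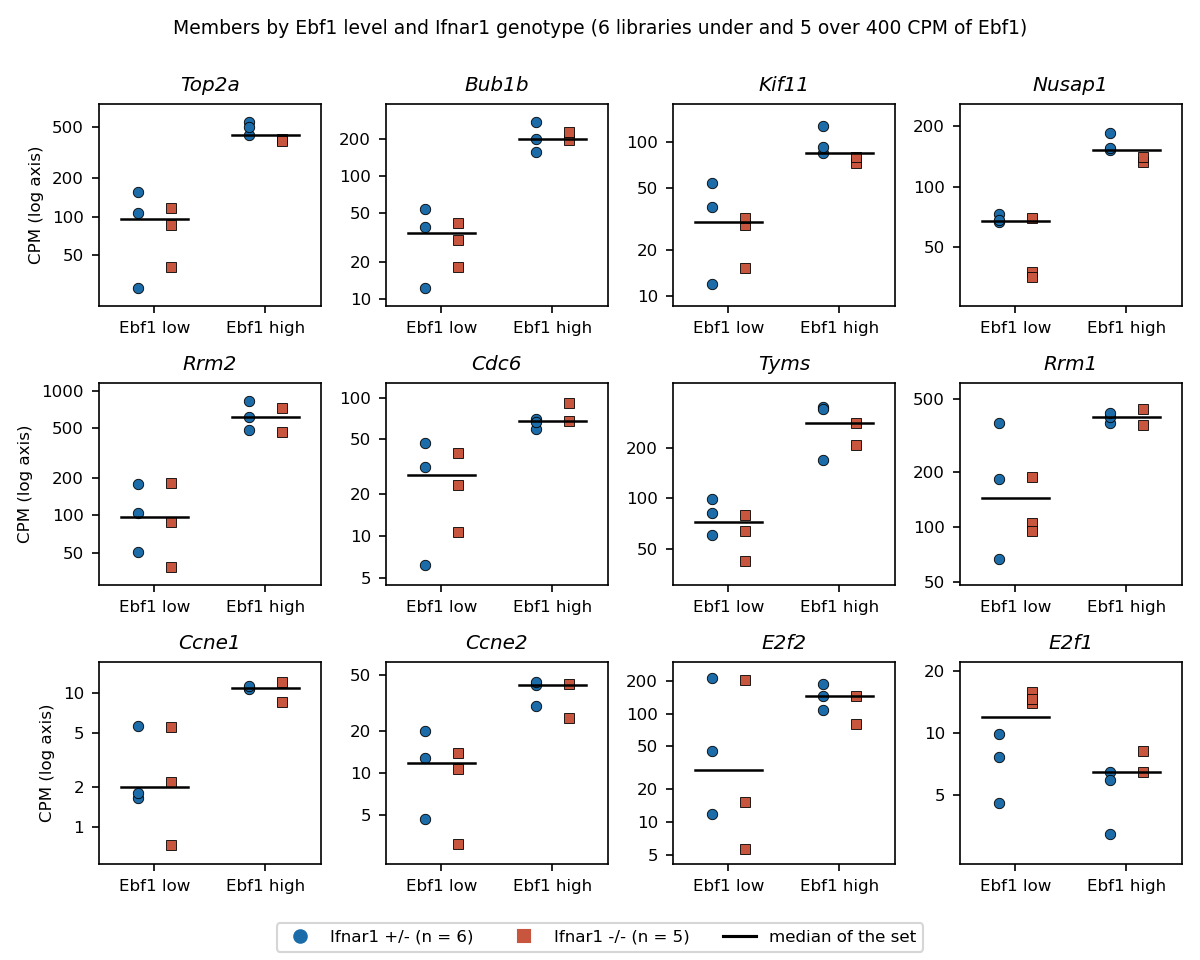
CPM on log axes of the 12 genes given in full (4 per role), by Ebf1 set and Ifnar1 label, with a bar at the median of each set. The Ebf1-high libraries are above the Ebf1-low ones in 9 panels, and in Rrm1, E2f2 and E2f1 they overlap.

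Among other G1 genes, 6 of 17 tested stood entirely above in the Ebf1-high libraries, 0 below, and 11 overlapped, including all 3 D-type cyclins, Cdk2, Cdk6 and the retinoblastoma family Rb1, Rbl1 and Rbl2. By genotype 11 were lower and 6 higher under the Ifnar1 -/- label, with 0 called. Over all tested genes, 12.1% stood entirely above, 9.001% entirely below and 51.7% were lower under that label. Cdk6, a cyclin D kinase, had the highest level of that list, at 522, 362, 552, 1009 and 671 CPM in the Ebf1-high and 308 to 916 CPM in the Ebf1-low libraries. E2f3, an E2F activator, had 11.8 to 16.9 CPM in the Ebf1-high and 3.76 to 9.68 CPM in the Ebf1-low libraries.

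Inhibitors of cyclin-dependent kinases did not follow the division genes as a list. Of 6 tested, Cdkn1a and Cdkn2b stood entirely below in the Ebf1-high libraries, Cdkn2c entirely above, and Cdkn1b, Cdkn2a and Cdkn2d overlapped. The shares over all tested genes were 9.001% entirely below and 12.1% entirely above. Cdkn1a (p21, a p53 target) had 96.6, 114, 114, 31.9 and 100.4 CPM in the Ebf1-high libraries and a lowest, median and highest value of 118, 394 and 591 CPM in the Ebf1-low ones. Cdkn2b (p15) had 0.322 to 3.93 CPM against 16.3 to 54.6 CPM. Cdkn2a had 3.19 to 12.6 CPM against 12.04 to 109.8 CPM, so its ranges overlapped slightly. Cdkn2c (p18) went with the division genes, at 23.2 to 81.0 CPM against 2.94 to 19.3 CPM. Cdkn1b had 14.7 to 23.8 CPM and 17.4 to 48.7 CPM, Cdkn2d 96.3 to 112 CPM and 89.9 to 274 CPM, and Cdkn1c, at most 0.363 CPM in any library, did not pass the filter. By genotype 3 of the 6 were lower and 3 higher, and 0 were called. Cdkn1a had the smallest p of them, with a log2 fold change of -0.68 (SE 0.70, edgeR adjusted p = 0.9998).

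The 12 replication genes had a median Ebf1-high to Ebf1-low ratio of 2.40, from 1.81 for Mcm6 to 6.43 for Rrm2. Rrm2 encodes the regulatory subunit of ribonucleotide reductase, whose supply limits nucleotide synthesis in S phase. It had 483, 620.5, 830.3, 469.8 and 734 CPM in the Ebf1-high libraries, and a lowest, median and highest value of 38.3, 96.5 and 181 CPM in the Ebf1-low ones. Rrm1, the catalytic subunit, had 372, 398, 419.5, 440.1 and 361 CPM against 66.7, 144 and 373 CPM. The single Ebf1-low library that reached the Ebf1-high range for Rrm1 was Ifnar1 +/- library 6, and for Rrm2 the same library stayed at 180.3 CPM.

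Tyms, which makes thymidylate, had 168, 346, 336, 206 and 281 CPM in the Ebf1-high libraries and 42.8, 72.1 and 98.8 CPM as lowest, median and highest in the Ebf1-low ones. Cdc6, the loader of the helicase, had 59.3, 70.3, 66.8, 91.3 and 67.5 CPM against 6.16, 27.5 and 47.0 CPM. Neither overlapped between the sets. By genotype the means of Cdc6 were nearly equal, at 46.9 ± 24.5 CPM (SD, n = 6) under the Ifnar1 +/- label and 46.6 ± 32.9 CPM (SD, n = 5) under Ifnar1 -/- (log2 fold change -0.011, SE 0.63). Rrm2 had 378 ± 315 CPM (SD, n = 6) and 302 ± 293 CPM (SD, n = 5) (log2 fold change -0.32, SE 0.85). The log2 fold change was -0.35 (SE 0.53) for Rrm1 and -0.43 (SE 0.62) for Tyms. None of the 4 passed (edgeR adjusted p = 0.9998 for each).

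The helicase subunits moved by different amounts. Their Ebf1-high medians were 4.24 times the Ebf1-low ones for Mcm7, 3.51 times for Mcm2, 2.28 times for both Mcm4 and Mcm5, 2.10 times for Mcm3 and 1.81 times for Mcm6. Mcm7 ranged from 492 to 641 CPM in the Ebf1-high and from 71.2 to 211 CPM in the Ebf1-low libraries, while Mcm6 ranged from 335 to 574 and from 87.1 to 303 CPM. Exons of Mcm7 overlap those of Cops6 and Ap4m1 on the opposite strand and hold the microRNA genes Mir25 and Mir93, so its reads may be mixed. Pcna had 238 to 367 CPM against 84.9 to 211 CPM, and Cdc45, the helicase activator, 46.8 to 65.3 CPM against 7.05 to 27.1 CPM. Exons of Cdc45 overlap those of Ufd1 on the opposite strand, so its reads may be mixed too. Pcna has 2 and Tyms 1 pseudogene named after it in the annotation, between which the authors' counting could have split reads. By genotype 9 of the 12 were lower under the Ifnar1 -/- label, and Mcm5, Mcm6 and Cdc45 had small positive log2 fold changes of 0.033, 0.13 and 0.068 (SE 0.59, 0.44 and 0.55).

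Replication genes outside the 42 were described in the same way, beside the 12.1% of all genes entirely above and the 51.7% lower under the Ifnar1 -/- label. Of 14 genes of origin licensing and firing, 11 stood entirely above in the Ebf1-high libraries (exceptions Orc1, Orc6 and Cdt1), with a median ratio of 2.71. Of 28 genes of the fork, 25 did (exceptions Pole, Rfc2 and Rnaseh2a), with a median ratio of 2.45. Gins2, a helicase cofactor, had 95.5 to 131 CPM against 35.5 to 52.7 CPM, and Pole2, a polymerase epsilon subunit, 25.2 to 62.3 CPM against 2.86 to 10.5 CPM. Orc6, an origin recognition subunit, overlapped because Ifnar1 +/- library 6 had 89.7 CPM, where the Ebf1-high range was 69.3 to 89.6 CPM. Rfc2, a clamp loader subunit, differed from the rest. It had 209 to 326 CPM in the Ebf1-high libraries but 588, 587 and 626 CPM in Ifnar1 +/- library 1 and Ifnar1 -/- libraries 1 and 4. Exons of Rfc2 overlap those of Lat2 on the opposite strand, so its reads may be mixed, and the part of Lat2 in these values was not tested. Exons of Gins2 and Orc6 likewise overlap those of Gse1 and Vps35 on the opposite strand. By genotype 8 of the 14 and 21 of the 28 were lower under the Ifnar1 -/- label, with median log2 fold changes of -0.080 and -0.092 and 0 called.

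The 26 mitotic genes had a median Ebf1-high to Ebf1-low ratio of 3.50, from 2.26 for Nusap1 to 5.84 for Bub1b. Bub1b encodes BubR1, a spindle checkpoint protein. It had 158, 201, 278, 199 and 227 CPM in the Ebf1-high libraries and a lowest, median and highest value of 12.2, 34.3 and 54.4 CPM in the Ebf1-low ones. Top2a, the topoisomerase that untangles chromosomes before they part, had 436, 545, 504, 407 and 389 CPM against 28.0, 96.0 and 157 CPM. For both genes the lowest Ebf1-high library was far above the highest Ebf1-low one, at 158 against 54.4 CPM and 389 against 157 CPM.

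Kif11, a motor that pushes spindle poles apart, had 84.7, 126, 93.1, 73.3 and 79.7 CPM in the Ebf1-high libraries and 12.1, 30.5 and 54.0 CPM as lowest, median and highest in the Ebf1-low ones. Nusap1, a spindle microtubule binder, had 185, 152, 156, 132 and 139.8 CPM against 35.6, 67.5 and 73.1 CPM. It was the only mitotic gene whose highest value among the Ebf1-low libraries was in Ifnar1 +/- library 1, at 73.1 CPM. Its exons overlap those of Oip5 on the opposite strand, and reads of the pair may be mixed.

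All 26 mitotic genes had fitted levels lower under the Ifnar1 -/- label, with a median log2 fold change of -0.36 (range -0.57 to -0.14), and 0 were called. Kif11 had the lowest value, with 67.9 ± 41.3 CPM (SD, n = 6) under the Ifnar1 +/- label and 45.9 ± 28.8 CPM (SD, n = 5) under Ifnar1 -/- (log2 fold change -0.57, SE 0.58, edgeR adjusted p = 0.9998). Nusap1 had 117 ± 53.2 CPM (SD, n = 6) and 82.9 ± 50.3 CPM (SD, n = 5), with a log2 fold change of -0.49 (SE 0.46). The difference was -0.26 (SE 0.86) for Bub1b and -0.51 (SE 0.79) for Top2a. These genes vary together across the libraries, so 26 lower values are not 26 separate observations, and the fits with Ebf1 above moved many of them.

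Cdk1, the kinase that starts mitosis, had 124 to 176 CPM in the Ebf1-high and 15.2 to 78.0 CPM in the Ebf1-low libraries. Its cyclin partners Ccna2 and Ccnb2 had 65.2 to 93.9 CPM against 8.07 to 30.1 CPM and 183 to 247 CPM against 21.1 to 145 CPM. Ccnb1 was the mitotic exception: Ifnar1 +/- library 6, although Ebf1-low, had 299 CPM, inside the Ebf1-high range of 267 to 332 CPM, while the other 5 Ebf1-low libraries had 32.2 to 103 CPM. With library totals only, this overlap was absent. Ccna2 overlaps Exosc9 on the opposite strand, and Ccnb1 and Ccnb2 each have 1 pseudogene named after them. The mitotic kinases Aurka, Aurkb, Plk1 and Bub1 had ratios of 3.37, 3.53, 3.61 and 3.60. Mki67, the proliferation antigen, had 78.9 to 108 CPM against 8.86 to 76.1 CPM, so the sets lay close together.

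At the kinetochore and centromere, Cenpf (4.38), Ndc80 (3.57), Cenpa (3.51), Cenpe (3.28) and Nuf2 (2.79) had those ratios of Ebf1-high to Ebf1-low medians. Among motors of the spindle and of cytokinesis they were 5.07 for Kif23, 4.04 for Kif2c and 3.04 for Kif20a. The anaphase-promoting complex activator Cdc20 had a ratio of 3.40 and its ubiquitin-conjugating partner Ube2c one of 3.58. Birc5 (survivin) and Cdca8 (borealin), of the chromosomal passenger complex with Aurkb, had 3.28 and 2.53, and Tpx2, the activator of Aurka, 2.67. Reads of Plk1, Cdca8, Kif20a, Cdc20 and Ube2c may likewise be mixed with those of genes on the opposite strand.

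Beyond the 42, mitotic genes from textbook lists were summarised too. The Ebf1-high libraries stood entirely above for 9 of 12 genes of mitotic entry, 11 of 14 of the checkpoint and kinetochore, 7 of 9 of condensin and cohesion, and 15 of 16 of the spindle and cytokinesis. Median ratios of these lists were 3.06, 2.86, 3.34 and 3.49. Kif22, a chromosome motor, had 164 to 223 CPM against 15.8 to 109 CPM, and Kif18a, another motor, medians of 19.4 and 6.15 CPM without overlap. Plk4, the centriole kinase, had 19.9 to 23.7 CPM against 3.83 to 13.4 CPM, and the checkpoint protein Bub3 323 to 434 CPM against 199 to 280.3 CPM. Overlap was seen for Cks2, a Cdk subunit (107 to 139.7 against 40.5 to 144 CPM), for Cenpk of the kinetochore (15.6 to 21.1 against 5.64 to 28.1 CPM), for the condensin subunit Smc4 (132 to 169 against 68.9 to 155 CPM) and for the securin Pttg1 (23.5 to 84.4 against 23.3 to 42.6 CPM). The remaining genes of these lists that overlapped were Mybl2 (B-Myb), Wee1, Mad2l1, Spc25 and Prc1. By genotype 11, 13, 9 and 16 of these lists' genes were lower under the Ifnar1 -/- label, with 0 called. Over all 116 pathway genes tested, 92 were lower and 24 higher (median log2 fold change -0.21), 85 stood entirely above in the Ebf1-high libraries and 2 entirely below. Over all tested genes, 51.7% were lower, 12.1% stood entirely above and 9.001% entirely below. Genes of these lists that vary together are not separate observations.

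A score for each library, the mean over the 42 genes of log2 CPM centred on each gene's mean, ranged from -1.97 to 1.14. It was 0.92, 1.06, 1.14, 1.05 and 0.95 in the Ebf1-high libraries. In the Ebf1-low libraries it was -1.97, -0.45 and 0.11 in Ifnar1 +/- libraries 1, 2 and 6 and -0.58, -0.51 and -1.70 in Ifnar1 -/- libraries 1, 2 and 4. The Ebf1-high libraries thus lay within 0.22 of each other and the Ebf1-low ones spread over 2.08, both in log2 units. By genotype the score was 0.13 ± 1.21 (SD, n = 6) under the Ifnar1 +/- label and -0.16 ± 1.16 (SD, n = 5) under Ifnar1 -/-, and the genotypes overlapped within either Ebf1 set.

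The extremes were shared. Ifnar1 +/- library 1 was the lowest of the 11 for 30 of the 42 genes and Ifnar1 -/- library 4 for 9, together 39 of 42, where 20.1% of all tested genes had their lowest value in one of these 2 libraries. Among the 6 Ebf1-low libraries, Ifnar1 +/- library 6 was the highest for 31 of the 42, against 21.1% of all genes. Ifnar1 +/- library 1 and Ifnar1 -/- library 4 had summed levels of 3980 and 1938 CPM over 10 stem and progenitor markers. The other 4 Ebf1-low libraries had 393 to 2473 CPM, so the second value lies inside their range. Without Ifnar1 +/- library 1 and Ifnar1 -/- library 4 together, the count of genes standing entirely above in the Ebf1-high libraries was still 38, beside 13.2% of all genes. It was 41 without Ifnar1 +/- library 6 and Ifnar1 -/- library 2, beside 18.4%. Both of these omissions were chosen after seeing the data.

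Replication and mitotic genes did not move in equal steps. Over the 9 replication genes Mcm2 to Mcm7, Rrm1, Rrm2 and Pcna the score went from -1.61 to 1.23, and over the 26 mitotic genes from -2.19 to 1.28. The replication score minus the mitotic score was 0.58 in Ifnar1 +/- library 1 and 0.52 in Ifnar1 -/- library 4, the libraries with the lowest scores. In the Ebf1-high libraries it was -0.16, -0.40, -0.38, 0.18 and -0.28. In the remaining Ebf1-low libraries it was 0.03, -0.10, 0.24 and -0.23, in the order Ifnar1 +/- 2 and 6 and Ifnar1 -/- 1 and 2, so the sets overlapped. By genotype the difference was -0.072 ± 0.36 (SD, n = 6) under the Ifnar1 +/- label and 0.086 ± 0.34 (SD, n = 5) under Ifnar1 -/-, which also overlapped.

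**Figure D4:**
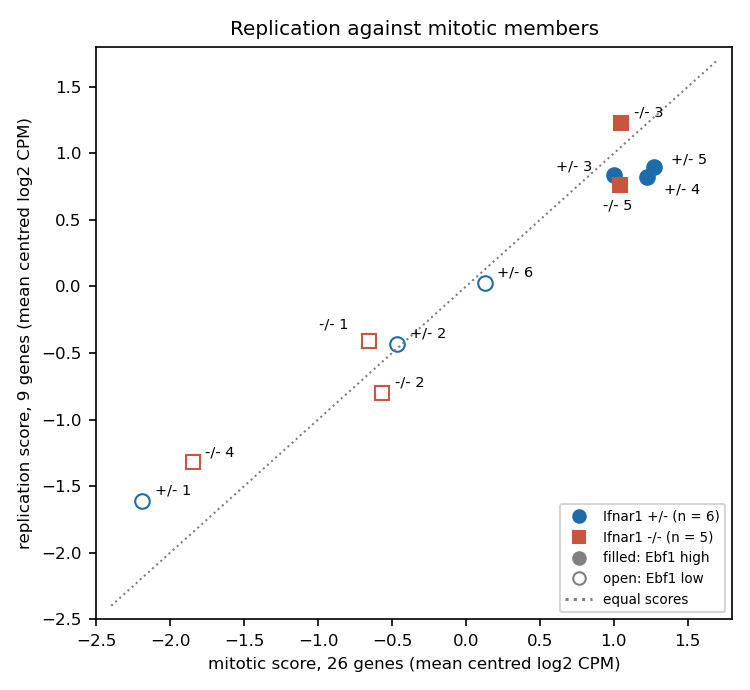
Replication score (9 genes) against mitotic score (26 genes) of each library, both as mean centred log2 CPM, with colour for the Ifnar1 label, filled symbols for Ebf1-high libraries and a dotted line where both scores are equal. Ifnar1 -/- library 3 is the only filled symbol above the line, and the 2 lowest libraries lie farthest above it.

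Ifnar1 -/- library 3 stood out among the Ebf1-high libraries. It was the highest of all 11 for 10 of 12 replication genes but 1 of 26 mitotic genes, where 9.17% of all tested genes had their highest value there. Ifnar1 +/- libraries 4 and 5 showed the reverse: 1 or the other was the highest for 21 of 26 mitotic and 2 of 12 replication genes, against 15.5% of all genes. For Mcm2 the value was 576 CPM in Ifnar1 -/- library 3 and 362 to 395 CPM in the other 4 Ebf1-high libraries, and for Mcm5 it was 543 against 326 to 364 CPM. The exceptions among replication genes were Rrm2 and Tyms, with 469.8 and 206 CPM in that library.

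Of the marker lists of other cell types, that of the B lineage went with the Ebf1 sets. Of 15 B lineage markers, 13 stood entirely above in the Ebf1-high libraries, where the summed level of the list was 6537 to 9924 CPM against 16.7 to 207 CPM in the others. Ebf1 is itself on this list and defines the sets, so its place among the 13 was fixed in advance, and its level is part of the sums. The most abundant member of the list, the B cell receptor component Cd79b, had 913 to 1155 CPM against 0.774 to 46.7 CPM, while markers such as Pax5, Blnk, Igll1, Vpreb2, Rag1, Rag2 and Dntt were at 0 in at least 1 Ebf1-low library. The labels call all of these samples AML, so 5 of the 11 carried a strong B lineage signal under that label. For the remaining lists the counts were few, beside the 12.1% of all genes entirely above and 9.001% entirely below. Of 13 erythroid markers in the table, 0 stood above and 2 below (summed 981 to 3402 against 3285 to 135817 CPM), of 11 megakaryocyte markers 0 and 1 (13.9 to 219 against 352 to 2730 CPM), and of 10 stem and progenitor markers 0 and 1 (178 to 548 against 393 to 3980 CPM). The megakaryocyte sums thus also separated the sets, with every Ebf1-high library below every Ebf1-low one.
None of the 12 neutrophil markers (218 to 4216 against 4.87 to 30493 CPM) and 10 eosinophil markers (50.3 to 1103 against 31.9 to 68518 CPM) separated the sets, and of 10 T and natural killer cell markers 2 stood above (156 to 613 against 259 to 6416 CPM). Their part in the levels of the 42 genes was not tested.

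Transcript levels were compared between genes only as CPM per kilobase of exons in the GENCODE M21 annotation. On that scale the median over the 11 libraries was highest for Ccnb2 (94.9), Pcna (87.9) and Mcm3 (72.7) and lowest for Cenpf (1.78), Ccne1 (2.12) and E2f1 (2.43). The annotation behind the deposited counts is not known, so these per-length levels are approximate.

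Since replication and mitotic genes are known to be controlled through different promoter elements, their promoters were searched for 3 kinds of motif on both strands. Windows ran from 250 bases before to 50 bases after the RefSeq start (build GRCm38.p6), and 36 of the 42 genes had a window, 38 windows in all, since Mcm7 and E2f2 each have more than 1. No window was held for Ccne2, Aurkb, Tpx2, Ccna2, Kif20a and Mcm4. The motifs were the cell cycle homology region, as TTTGAA or as TTTAAA, which is its own reverse complement, the CCAAT box, and E2F matches, written TTTCCCGC or TTTGGCGC or TTTCGCGC or TTTGCGCG, which can overlap each other. A match is a description of the letters and does not show binding.

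The cell cycle homology region was in 19 of 22 mitotic windows (86.4%), in 4 of 12 replication windows (33.3%) and in 20.2% of the 12911 windows of tested genes. The CCAAT box was in 17 mitotic (77.3%) and 10 replication windows (83.3%), against 38.1% of the windows of tested genes. E2F matches went the other way, with 1 mitotic window (4.55%), that of Cdk1, and 5 replication windows (41.7%), against 3.91%. Over all 32851 windows of the same length the shares were 27.6%, 37.4% and 2.15%. In 50 windows of the other mitotic genes the shares were 64%, 72% and 10%, and in 39 windows of the other replication genes 23.1%, 46.2% and 28.2%. The median GC content was 58.3% for mitotic and 57.3% for replication windows, against 60.3% for tested genes. No motif was found in these letters for E2f1, Tyms, Nuf2 and Nusap1.

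The promoters of the replication and mitotic genes that varied most, among those with a match before the start, are shown so that the letters behind these shares can be read. They are the bases before the RefSeq start, 5′ to 3′ on the gene's strand, in lower case with the motif matches in capitals (the CCAAT box reads ATTGG on the other strand). Rrm2 (chr12:24708004-24708253, plus strand) and Cdc6 (chr11:98907982-98908150, plus strand, without 81 bases that GENCODE places in a UTR) are replication genes. Rrm2 holds 1 CCAAT box and Cdc6 holds 1 E2F match. Bub1b (chr2:118597961-118598210, plus strand) and Top2a (chr11:99024190-99024439, minus strand) are mitotic genes with 1 and 8 matches, and 2 of the 8 in Top2a are cell cycle homology regions. Rrm2 and Bub1b also have a homology region, at or after the start, which is not in the stretch shown.
Rrm2: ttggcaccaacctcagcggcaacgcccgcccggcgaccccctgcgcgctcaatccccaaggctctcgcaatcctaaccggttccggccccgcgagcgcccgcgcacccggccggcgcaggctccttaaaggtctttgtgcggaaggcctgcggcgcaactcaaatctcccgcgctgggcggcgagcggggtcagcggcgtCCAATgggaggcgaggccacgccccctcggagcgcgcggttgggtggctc
Cdc6: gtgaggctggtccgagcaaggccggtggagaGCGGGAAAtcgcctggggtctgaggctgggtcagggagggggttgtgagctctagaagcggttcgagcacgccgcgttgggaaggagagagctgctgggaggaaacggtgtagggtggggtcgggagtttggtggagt
Bub1b: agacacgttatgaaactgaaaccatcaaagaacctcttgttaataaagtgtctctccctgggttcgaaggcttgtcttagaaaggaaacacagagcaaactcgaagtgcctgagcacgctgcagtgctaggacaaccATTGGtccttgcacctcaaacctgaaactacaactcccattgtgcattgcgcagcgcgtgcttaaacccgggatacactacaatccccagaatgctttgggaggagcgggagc
Top2a: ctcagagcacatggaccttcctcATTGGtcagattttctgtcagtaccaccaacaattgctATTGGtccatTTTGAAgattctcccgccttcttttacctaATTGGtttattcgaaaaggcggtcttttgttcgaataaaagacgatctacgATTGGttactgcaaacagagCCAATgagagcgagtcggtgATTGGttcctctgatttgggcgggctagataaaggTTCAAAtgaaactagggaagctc

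A pair chosen after the matches were seen shows how the elements are laid out in a gene of each role that has E2F matches. Mcm6 (chr1:128359706-128359955, minus strand) holds 3 E2F matches, of which 2 overlap, and 2 CCAAT boxes. Cdk1 (chr10:69352913-69353162, minus strand) holds 1 E2F match, 3 CCAAT boxes and 2 cell cycle homology regions. Their Ebf1-high to Ebf1-low ratios were 1.81 for Mcm6 and 3.61 for Cdk1.
Mcm6: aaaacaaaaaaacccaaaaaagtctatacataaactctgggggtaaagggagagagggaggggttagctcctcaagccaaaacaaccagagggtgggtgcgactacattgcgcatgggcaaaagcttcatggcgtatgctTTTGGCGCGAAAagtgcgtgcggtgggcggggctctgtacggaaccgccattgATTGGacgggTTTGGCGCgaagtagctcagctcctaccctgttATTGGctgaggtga
Cdk1: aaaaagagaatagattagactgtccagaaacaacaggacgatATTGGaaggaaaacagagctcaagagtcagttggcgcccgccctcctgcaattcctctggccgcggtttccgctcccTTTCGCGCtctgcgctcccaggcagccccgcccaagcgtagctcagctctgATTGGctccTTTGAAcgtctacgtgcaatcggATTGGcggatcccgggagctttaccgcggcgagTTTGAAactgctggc

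**Figure D5:**
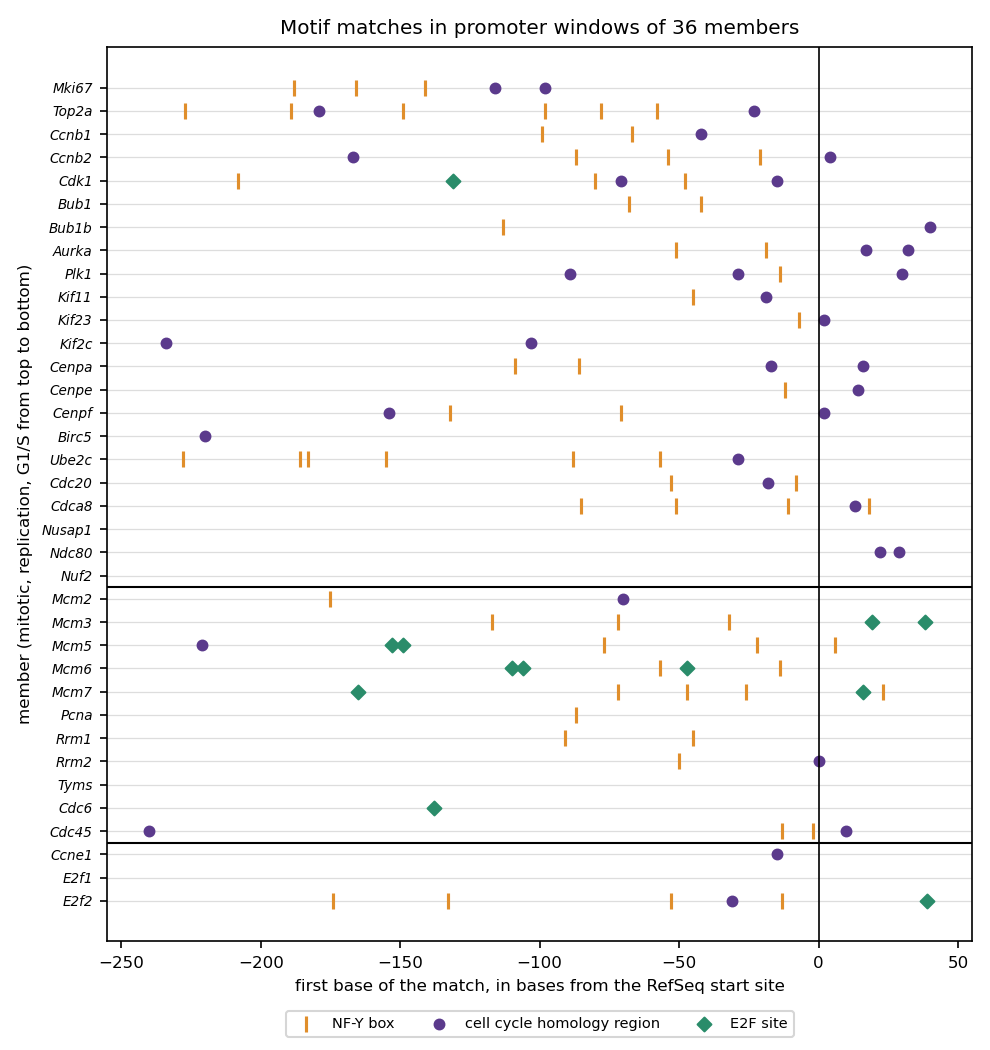
First base of each motif match, in bases from the RefSeq start site (vertical line), in the windows of 36 genes, with mitotic genes above, replication genes in the middle and G1/S genes below. NF-Y box stands for the CCAAT box, and the windows of Mcm7 and of E2f2 are drawn on 1 line each. Cell cycle homology regions are in most mitotic rows (19 of 22 windows). Among replication windows, 5 of 12 hold E2F matches and 10 of 12 hold CCAAT boxes.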

How the data were processed

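The authors deposited 1 table of estimated counts per gene for all 11 samples, not scaled between libraries. Per the submitters' processing notes, bcl2fastq and DRAGEN were used, with no version named, and no source used here names the genome build or the annotation. Total RNA was prepared with a Qiagen micro-scale kit and a Clontech library kit, per the labels' protocols.

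The table held 55774 rows, and 287 identical copies were dropped. Symbols matched 55141 of 55487 identifiers. Values were rounded to whole numbers. The filter was filterByExpr with the genotypes (14521 genes remained), the scaling TMM and the test that of edgeR 4.0.16 under R 4.3.3 (quasi-likelihood F-test, robust, two-sided, Benjamini-Hochberg threshold 0.05, 6 against 5 libraries). The SE is the absolute log2 fold change over the square root of F. Fold changes are Ifnar1 -/- over Ifnar1 +/-. Levels are TMM-scaled CPM, and scores use a prior count of 2. No 2 columns were identical. The fit was tested on simulated data with the spread estimated from these libraries. It called 1 of 50 genes changed by 1 log2 unit, 42 of 100 changed by 2 and 29 of 50 changed by 3. It also called 4 unchanged genes. Changes of 1 log2 unit were thus mostly missed, so 0 called genes does not show that levels are equal. Alternatives used DESeq2 1.42.0, limma 3.58.1, other scalings and filters, covariates and left-out libraries. Gene models came from GENCODE M21 on GRCm38 and promoters from RefSeq.

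The genes, the lists and the Ebf1 boundary of 400 CPM were chosen with earlier results of these data known. All 42 genes, Ebf1 and the CDK inhibitors are named, and from each other pathway list the gene with the smallest genotype p and that with the highest level. In each role the 2 genes with the largest SD and the 2 with the smallest genotype p are given in full, and the promoters shown are those of the 2 replication and the 2 mitotic genes with the largest SD whose upstream window holds a match. Ifnar1, members of marker lists and single exceptions were also named, chosen after their values were seen. A stretch of over 30 bases of a UTR is left out of the sequences.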

Additional observations from a re-analysis of the deposited data

Results flagged for a closer look

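In 132 sets of 5 or 6 values, 6 had a single library farther from the others than Dixon's 95% limit, and chance alone flags about 1 in 20 such sets. A set was a gene's CPM in the libraries of 1 genotype, over the 42 genes and the pathway genes named, or a library score in those libraries. None of the 6 was one of the 42 genes. The securin Pttg1 had 84.4 CPM in Ifnar1 +/- library 3, and the clamp loader subunit Rfc2 had 588 CPM in Ifnar1 +/- library 1. The inhibitors Cdkn1b and Cdkn2d had 48.7 and 274 CPM in Ifnar1 -/- library 2, the library with the granule gene signal. The inhibitor Cdkn2c had 81.0 CPM in Ifnar1 -/- library 5. The Cdk subunit Cks2 had 46.3 CPM in Ifnar1 -/- library 4, below the 98.8 to 119 CPM of the others with that label.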

How the results depend on the processing

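The genotype test called 0 genes in edgeR under each alternative filter, scaling, covariate, left-out library or pair of libraries, and in limma voom, but 3 with DESeq2, none of the 42; genes at an unadjusted p under 0.05 numbered 289 in the test reported, 454 with DESeq2, 1216 with voom, 1117 with no filter, 160 at 5 CPM in 5 libraries and 190 to 523 with a library left out. Genes lower under the Ifnar1 -/- label fell from 38 to 23 with log2 Ebf1 as a covariate, where Bub1b (0.12), Top2a (0.019), Rrm2 (0.10), Cdc6 (0.15) and Ccne1 (0.018) turned positive; the cause was not tested. Cdc6, near 0 in the test reported, was also positive with the Ebf1 set as covariate (0.015), with library totals only (0.00082), and without Ifnar1 +/- 6 and Ifnar1 -/- 2 (0.17) or Ifnar1 +/- 1 and Ifnar1 -/- 4 (0.014). With each library left out in turn, the number lower ran from 26 to 41, their median log2 fold change from -0.65 to -0.088, Bub1b from -0.78 to 0.15, Rrm2 from -0.96 to 0.073, Cdc6 from -0.41 to 0.24 and Ccne1 from -0.72 to 0.022. E2f1 ran from 0.78 to 1.09. The count standing entirely above in the Ebf1-high libraries ran from 38 to 40, beside 12.4% to 15.1% of all tested genes. The count of 40 came without Ifnar1 +/- library 6, where the share of all genes was 15.1%. With all libraries it was 40 with library totals only and 38 with DESeq2 size factors, and the share of all genes was not counted under these scalings. With the number in the label as a block over libraries 1 to 5, 37 genes were lower, the median was -0.26 and Cdc6 was 0.042. Over the genes that vary most, 1 of 10 libraries correlated best with its own number. Libraries of the same number correlated at 0.52, 0.24, 0.62, -0.59 and 0.63 for numbers 1 to 5. The negative value is for number 4, where the libraries fall in different Ebf1 sets. The check cannot separate pairing from the Ebf1 sets, so whether the numbers pair the samples is not known. With voom, run with weights for the quality of each library, the median log2 fold change was -0.93 and 41 genes were lower. The share and median over all genes were not taken for the voom, block and left-out fits. Whether these shifts are particular to the 42 genes is therefore not known. In the edgeR test reported, the genotype log2 fold changes of the 42 genes were smaller than their standard errors (0.34 to 0.89), apart from Nusap1 and E2f1.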
